A study of Saccharomyces cerevisiae with 20 samples.

Results

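Ribosome footprints of a yeast strain labelled NIP1_depl were compared with those of a strain labelled hrc1D. The 8 libraries were chosen by the strain name in their titles, out of 20 libraries in 10 groups in the series. The NIP1_depl side held 4 libraries, 2 with EcFMT and 2 with R42L, and the hrc1D side also held 4, 2 with EcFMT and 2 with R42L. All 8 came from Saccharomyces cerevisiae that the labels give as fmt1 cells, that carried either EcFMT, the E. coli enzyme that formylates methionyl-tRNA, or its variant R42L. Cultures at 30 °C in synthetic complete medium were harvested at an A600 of about 0.5, lysates were digested with RNase I, and RNA from the 80S fractions of sucrose gradients was sequenced. The labels do not say how Nip1 was depleted or for how long, and the label hrc1D resembles the gene name HCR1. They also do not say whether replicates were separate cultures, and the spread that p-values measure here may be technical. A strain with neither change is not part of this comparison, so a difference does not tell which of the 2 strains departs from such a strain.

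Nip1 is the c subunit of eIF3, the large initiation factor that binds the small ribosomal subunit and helps bring the initiator tRNA and the mRNA to it. It belongs to the core of the complex and is essential for growth. Hcr1 is eIF3j, a loosely bound partner of the complex that yeast can live without, and it has also been linked to termination and ribosome recycling. FMT1 encodes the cell's own formyltransferase, a mitochondrial enzyme that formylates the methionine of initiator tRNA.

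Library totals were 116661 to 174629 expected counts in NIP1_depl and 153501 to 274712 in hrc1D, 563489 and 872180 in all. Most counts lay on open reading frames (ORFs) absent from the RefSeq gene table and lying opposite abundant genes, and those genes held almost nothing under their own names. YAL037C-B, opposite the pyruvate kinase gene CDC19, held 186182 counts over the 8 libraries, and CDC19 itself held 2. Whether counting used strand, and how, is not given in the labels or notes. Features are therefore given under their deposited names with the opposite gene, and their counts are not read as translation of the feature. The same doubt holds for counts under a gene's own name, which may not be reads of that gene's mRNA. Several opposite genes have near-identical paralogs (SSA1, SSB1 and many ribosomal protein genes), and reads shared between copies could be split by the counting. The strain labels could not be checked against their target genes, because NIP1 and HCR1 each held 2 counts in the NIP1_depl libraries and 0 in the hrc1D libraries. Among the other eIF3 subunits, PRT1, RPG1 and TIF35 held 0 counts in both strains, and TIF34 held 0 in NIP1_depl and 2 in hrc1D. FMT1 held 0 counts in both strains under its own name. The feature YBL012C, which lies between SCT1 and FMT1 and could not be assigned to either, held 218 counts in NIP1_depl and 229.9 in hrc1D. No transcript abundance is analysed here, so a difference may lie in the mRNA level, in its translation or in both.

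The 2 strains divided their footprints differently between the most abundant classes. Features opposite 3 glycolytic genes took 14.1% ± 0.329 of the library in NIP1_depl and 33.8% ± 1.07 in hrc1D (SD, n = 4 each). Features opposite 14 ribosomal protein genes took 41.1% ± 0.370 in NIP1_depl and 33.2% ± 0.308 in hrc1D. Within each library, glycolytic counts divided by ribosomal protein counts gave 0.357 and 0.334 with EcFMT and 0.334 and 0.342 with R42L in NIP1_depl, against 0.986 and 0.977 with EcFMT and 1.04 and 1.06 with R42L in hrc1D. The groups did not overlap, and the ratio in NIP1_depl was 0.336 times that in hrc1D. The exact permutation test over libraries gave p = 0.0286 (two-sided), the smallest that 70 splits allow. When the splits kept the enzyme form, the smallest p that 36 splits allow is 0.0556, and that value was reached. Of 14 such class shares and ratios tested, 12 gave the same 0.0286, which is 0.0333 after Benjamini-Hochberg adjustment over the 14. A ratio within a library does not depend on how libraries are scaled, but it shows unequal change and not which class moved.

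**Figure D1:**
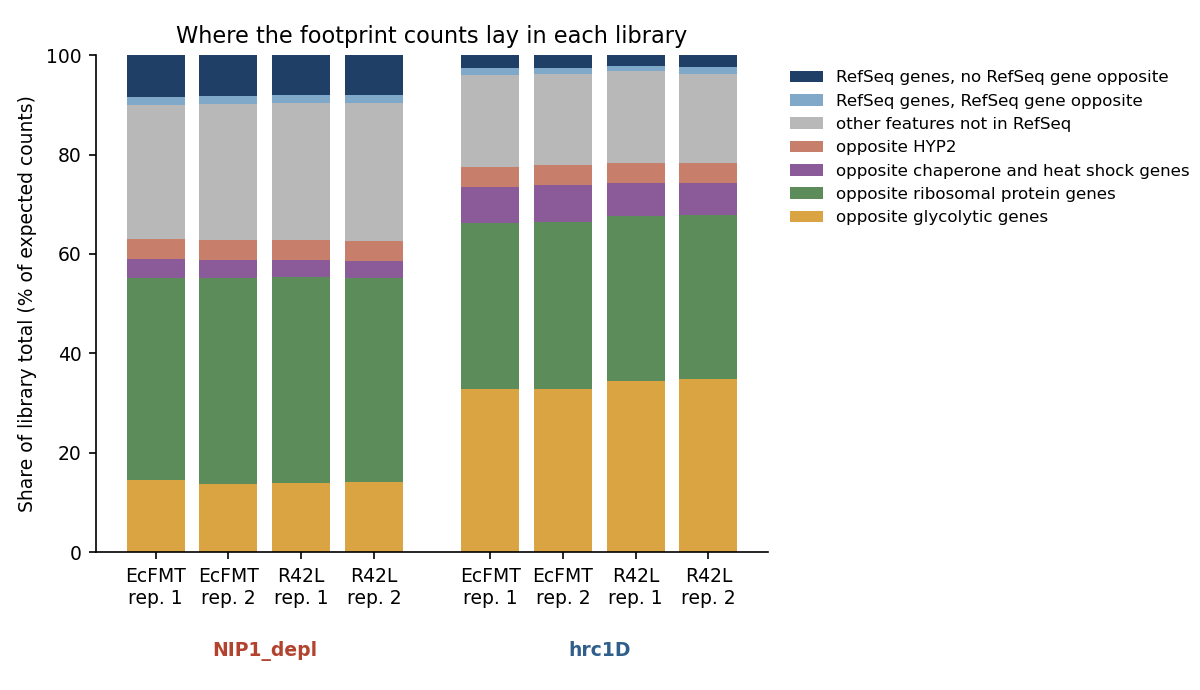
Share of the library total (% of expected counts, stacked to 100) by class of feature in each of the 8 libraries, NIP1_depl left and hrc1D right. The glycolytic band is 13.8 to 14.5% in NIP1_depl and 32.9 to 34.9% in hrc1D, and the band of RefSeq genes with no RefSeq gene opposite is 7.99 to 8.37% in NIP1_depl and 2.15 to 2.60% in hrc1D.

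The direction of many differences depended on scaling. TMM factors, which make the bulk of features equal on average, were 1.44 to 1.46 in NIP1_depl and 0.675 to 0.715 in hrc1D. Scaling to library totals in place of TMM moved the log2 change of all tested features up by a median of 1.06, and RLE size factors moved it up by 0.13. Levels below are counts per 1e+06 of the TMM-scaled library size (scaled CPM) or percent of the library total, and log2 changes are NIP1_depl minus hrc1D with TMM unless another scaling is named. With edgeR's quasi-likelihood test and enzyme form as a covariate, 531 of 774 tested features (68.6%) had a Benjamini-Hochberg adjusted p under 0.05, 279 higher (36%) and 252 lower (32.6%) in NIP1_depl. With RLE factors 551 were called (71.2%), 322 higher (41.6%) and 229 lower (29.6%), and with library totals 639 (82.6%), 550 higher (71.1%) and 89 lower (11.5%). The same 279 features were called higher, and 89 (11.5%) lower, under TMM, RLE factors and library totals alike, and the sign of 57 features called under TMM was turned and called the other way with library totals. The median log2 change over all tested features was 0.28 with TMM and 1.34 with library totals. Scaled CPM of the 4 and 4 libraries did not overlap for 471 features (60.9%).

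**Figure D2:**
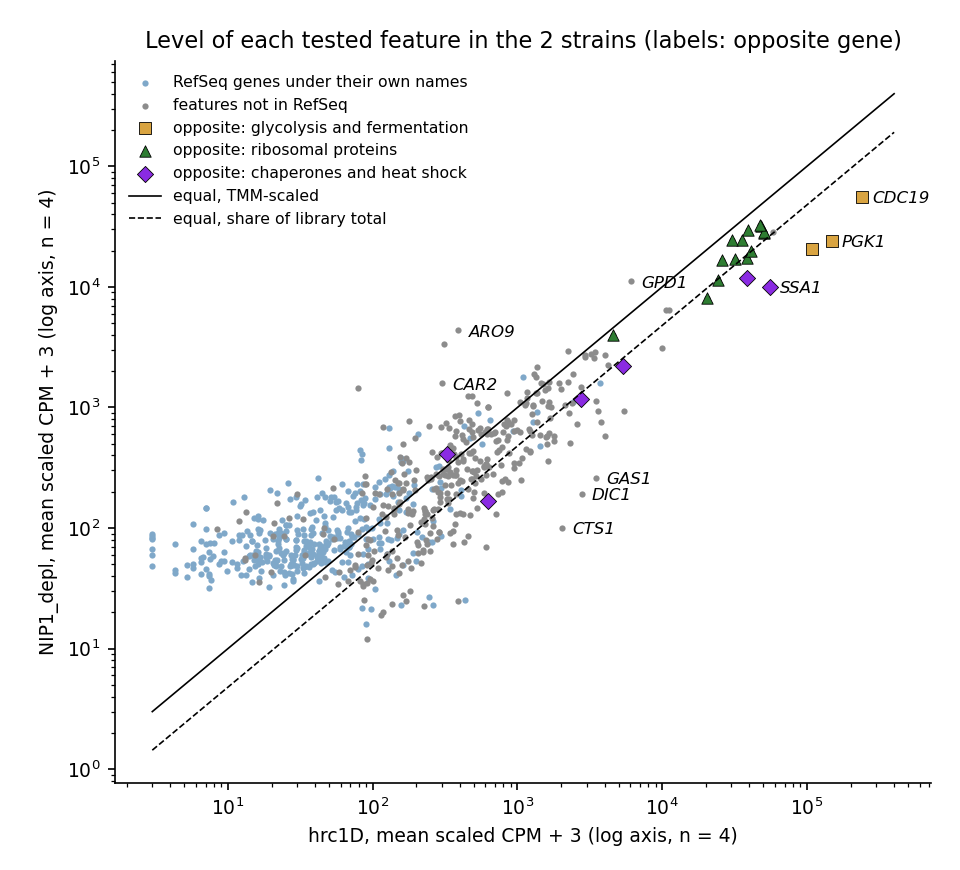
Mean scaled CPM plus 3 of each of the 774 tested features (points) in NIP1_depl (vertical, log axis) against hrc1D (horizontal, log axis), n = 4 libraries each. The solid line marks equal TMM-scaled levels and the dashed line equal shares of the library. The glycolytic squares lie below both lines, and the ribosomal protein triangles lie below the solid line and mostly above the dashed one.

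Of 29 glycolysis and fermentation genes, 3 had a tested opposite feature, and these were lower in NIP1_depl under all 3 scalings. So were 11.5% of all tested features and 76 of the 386 tested features not in RefSeq. YAL037C-B, opposite CDC19 (pyruvate kinase), took 8.11% and 7.59% with EcFMT and 7.66% and 7.71% with R42L in NIP1_depl, against 16.3% and 16.4% with EcFMT and 15.8% and 16.7% with R42L in hrc1D. YCR013C, opposite PGK1 (phosphoglycerate kinase), took 3.57%, 3.37%, 3.23% and 3.38% in NIP1_depl, against 9.49%, 9.53%, 10.9% and 10.4% in hrc1D. YKL153W, opposite GPM1 (phosphoglycerate mutase), took 2.83%, 2.81%, 2.97% and 2.98% in NIP1_depl, against 7.06%, 6.90%, 7.78% and 7.81% in hrc1D. Every NIP1_depl library was below every hrc1D library for each of the 3. Of all tested features, 60.9% had scaled CPM that did not overlap between the strains. The log2 changes were -2.11 ± 0.04, -2.61 ± 0.05 and -2.39 ± 0.05 (SE), with an adjusted p of 1.1e-28 each in edgeR's quasi-likelihood test. With library totals they were -1.04, -1.54 and -1.32. None of the 29 glycolysis and fermentation genes passed the filter on low counts under its own name.

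Of 138 cytosolic ribosomal protein genes, 14 had a tested opposite feature. These were lower with TMM in 14 of 14 cases (log2 -1.34 to -0.20, median -0.73), but with library totals 10 were called higher and 1 lower (median 0.34), so no direction is given for them as a class. Of the 386 tested features not in RefSeq, 215 (55.7%) were lower with TMM and 215 were higher with library totals. YLR076C, opposite RPL10, which encodes a late-joining protein of the large subunit, took 4.59%, 4.43%, 4.37% and 4.48% of NIP1_depl libraries, against 3.26%, 3.25%, 3.24% and 3.28% of hrc1D libraries. Its log2 change was -0.58 with TMM and 0.48 with library totals. YPR044C, opposite RPL43A, took 4.55% ± 0.151 in NIP1_depl and 3.24% ± 0.226 in hrc1D, and YLL044W, opposite RPL8B, took 4.12% ± 0.0527 in NIP1_depl and 2.65% ± 0.198 in hrc1D (SD, n = 4 each). YGL102C, opposite RPL28, took 3.96% ± 0.0825 in NIP1_depl and 3.42% ± 0.0204 in hrc1D. YPL250W-A, opposite RPL36B, took nearly the same share, 2.78% ± 0.0868 in NIP1_depl and 2.79% ± 0.116 in hrc1D. YGL123C-A, opposite RPS2, which encodes a protein of the small subunit, was the 1 of the 14 lower under all 3 scalings (log2 -1.34 with TMM and -0.27 with library totals).

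The ribosomal stalk is the part of the large subunit that recruits translation factors. Of 7 stalk genes, 3 had an opposite feature, and all 3 were lower with TMM and higher with library totals. Among the 386 tested features not in RefSeq, 215 (55.7%) were lower with TMM and 215 higher with library totals. No trait of the stalk is drawn from its 3 features. YLR339C, opposite RPP0, took 4.01% ± 0.132 in NIP1_depl and 3.46% ± 0.238 in hrc1D. YDR417C, opposite RPL12B, took 3.40% ± 0.0937 in NIP1_depl and 2.43% ± 0.0631 in hrc1D, and YEL053W-A, opposite RPL12A, took 2.35% ± 0.0879 in NIP1_depl and 1.76% ± 0.133 in hrc1D. The ratio of stalk to other ribosomal protein counts was 0.311 ± 0.00754 in NIP1_depl and 0.300 ± 0.0177 in hrc1D (SD, n = 4 each). These ratios overlapped between the strains, and the exact permutation test gave p = 0.229.

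Among translation factors, YEL034C-A lies opposite HYP2, which encodes eIF5A, a factor that helps ribosomes through difficult peptide bonds. It took 4.06%, 4.13%, 3.91% and 3.86% of NIP1_depl libraries, against 3.94%, 4.02%, 3.92% and 3.98% of hrc1D libraries. These shares overlapped (exact permutation p = 0.771), although the feature was called lower with TMM (log2 -1.03) and was 0.04 with library totals. Relative to the ribosomal protein features it was lower in NIP1_depl, 0.0971 ± 0.00346 against 0.119 ± 0.00110 in hrc1D (SD, n = 4 each, exact permutation p = 0.0286). Of 35 initiation factor genes 2 had a tested opposite feature. YOR277C, opposite CAF20, which encodes a protein that binds the cap-binding factor eIF4E and represses translation, had 792, 739, 766 and 604 scaled CPM in NIP1_depl, against 2559, 2628, 2266 and 2831 in hrc1D. The groups did not overlap, and the log2 change was -1.82 ± 0.11 (SE, adjusted p = 5.6e-16 in edgeR's quasi-likelihood test), lower under all 3 scalings. YPL238C, opposite SUI3 (the beta subunit of eIF2), had 2728 ± 218 scaled CPM in NIP1_depl and 4011 ± 527 in hrc1D (SD, n = 4 each), a log2 change of -0.56 with TMM and 0.51 with library totals. No eIF3 subunit gene had a tested feature, opposite or under its own name.

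Of 48 chaperone and heat shock genes, 6 had a tested opposite feature. With TMM 5 were called lower and 1 was not called, and 4 were lower under all 3 scalings (median log2 -1.49 with TMM, against 0.28 over all tested features). Of all tested features 32.6% were lower with TMM and 11.5% under all 3 scalings, and of the tested features not in RefSeq 55.7% were lower with TMM. Set against the ribosomal protein features of the same library, their counts gave 0.0881 ± 0.00360 in NIP1_depl and 0.210 ± 0.0117 in hrc1D (SD, n = 4 each, exact permutation p = 0.0286). YAL004W, opposite SSA1, a cytosolic Hsp70 induced by heat and other stress, took 1.49%, 1.44%, 1.36% and 1.34% of NIP1_depl libraries, against 4.11%, 4.04%, 3.48% and 3.41% of hrc1D libraries. Its log2 change was -2.45 ± 0.05 (SE, adjusted p = 1.1e-27 in edgeR's quasi-likelihood test). YDL228C, opposite SSB1, an Hsp70 bound to ribosomes, took 1.72%, 1.70%, 1.61% and 1.62% of NIP1_depl libraries, against 2.62%, 2.66%, 2.74% and 2.47% of hrc1D libraries. Neither feature overlapped between the strains. YLR217W, opposite CPR6 (a co-chaperone of Hsp90), had 2195 ± 59.5 scaled CPM in NIP1_depl and 5337 ± 548 in hrc1D. YJL009W, opposite CCT8, a subunit of the chaperonin that folds actin and tubulin, had 166 ± 4.64 scaled CPM in NIP1_depl and 618 ± 97.6 in hrc1D. YDR187C, opposite CCT6 of the same chaperonin, was lower with TMM (log2 -1.24) and uncalled with library totals (log2 -0.17).

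HSF1 encodes the heat shock transcription factor, and both strands of its locus had a tested feature. HSF1 under its own name had 57.5, 49.9, 6.12 and 38.4 scaled CPM in NIP1_depl, against 203, 126, 166 and 73.8 in hrc1D, a log2 change of -1.85 ± 0.36 (SE, adjusted p = 3.7e-05 in edgeR's quasi-likelihood test). YGL074C, opposite HSF1, had 308, 489, 423 and 401 scaled CPM in NIP1_depl, against 321, 355, 357 and 258 in hrc1D, and was not called (log2 0.31, adjusted p = 0.11), though it was called higher with RLE factors (log2 0.44), with library totals (log2 1.38), with features not in RefSeq alone (log2 0.79), at a mean of at least 50 counts (log2 0.86) and without NIP1_depl EcFMT replicate 1 (log2 0.41, adjusted p = 0.0415). The HSF1 groups did not overlap, and those of YGL074C did.

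Among features averaging at least 50 counts, the largest falls were opposite CTS1, DIC1 and GAS1, and these features were lower under all 3 scalings, as were the 3 that follow them. YLR286W-A, opposite CTS1, the chitinase that separates mother and daughter cells, had 98.5, 115, 116 and 60.4 scaled CPM in NIP1_depl, against 2153, 2229, 2109 and 1651 in hrc1D. YLR349W, opposite DIC1, the mitochondrial dicarboxylate carrier, had 205, 205, 208 and 137 scaled CPM in NIP1_depl, against 2805, 2567, 2841 and 2859 in hrc1D. YMR307C-A, opposite GAS1, a glucan-remodelling enzyme of the cell wall, had 271, 275, 220 and 269 scaled CPM in NIP1_depl, against 3222, 3409, 3721 and 3606 in hrc1D. In all 3, every NIP1_depl library lay far below every hrc1D library, and the log2 changes were -4.39 ± 0.15, -3.86 ± 0.13 and -3.73 ± 0.11 (SE). YBR089W, opposite POL30, which encodes the sliding clamp PCNA, had 517, 659, 661 and 472 scaled CPM in NIP1_depl, against 3500, 4184, 4340 and 4040 in hrc1D. YKR012C, opposite PRY2, which encodes a secreted sterol-binding protein, had 924 ± 75.3 scaled CPM in NIP1_depl and 5400 ± 882 in hrc1D (SD, n = 4 each). YNL089C, which lies between TOP2 and RHO2, had 66.8 ± 10.0 scaled CPM in NIP1_depl and 606 ± 93.1 in hrc1D.

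**Figure D3:**
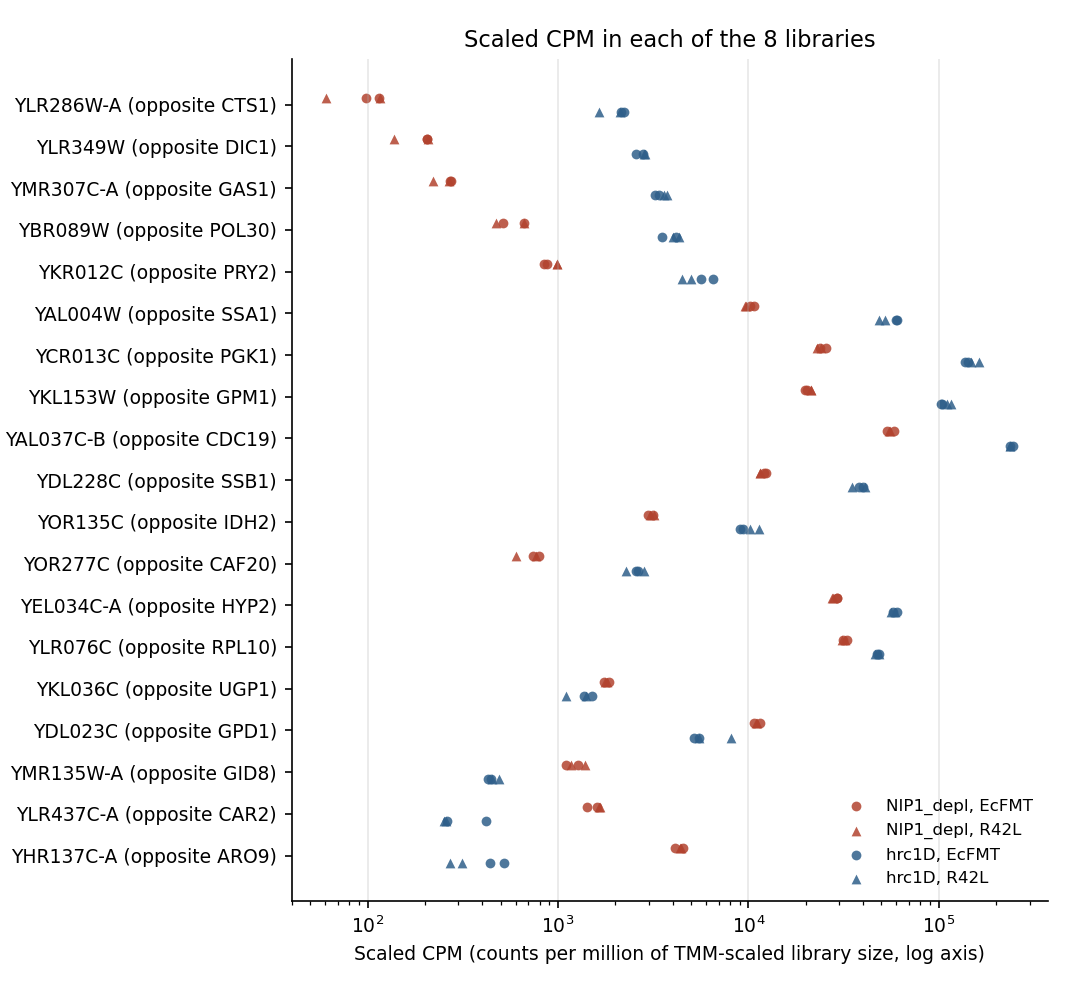
Scaled CPM (log axis) of 19 named features in each of the 8 libraries. NIP1_depl libraries are drawn above hrc1D libraries in each row, with circles for EcFMT and triangles for R42L. Among the 19 drawn, the gap is widest opposite CTS1 (97.5 ± 26.03 in NIP1_depl and 2035 ± 261 in hrc1D) and in the other direction opposite ARO9 (4359 ± 189 in NIP1_depl and 386 ± 116 in hrc1D).

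Further features lower under all 3 scalings were picked out after their values were seen, and no theme is drawn from them. YHL034W-A, opposite SBP1, which encodes an RNA-binding repressor of translation, had 750 ± 44.1 scaled CPM in NIP1_depl and 3778 ± 630 in hrc1D (SD, n = 4 each). YLR379W, opposite SEC61, the channel through which proteins enter the endoplasmic reticulum, had 927 ± 94.1 scaled CPM in NIP1_depl and 3574 ± 192 in hrc1D. YDL096C, opposite PMT1 (protein mannosylation), had 573 ± 71.5 scaled CPM in NIP1_depl and 1771 ± 72.9 in hrc1D. YOR102W, opposite OST2, a subunit of the enzyme that transfers N-glycans, had 345 ± 65.8 scaled CPM in NIP1_depl and 1022 ± 140 in hrc1D. YPR087W, opposite SRP54 of the signal recognition particle, had 190 ± 52.5 scaled CPM in NIP1_depl and 580 ± 119 in hrc1D. Opposite the tRNA synthetase genes ILS1 (isoleucine) and GLN4 (glutamine), YBL077W and YOR169C had log2 changes of -1.77 and -1.48. YGR265W, opposite the methionine enzyme's gene MES1, was lower with TMM (log2 -1.13) and not called with library totals (log2 -0.06).

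Other lists had few tested members. Opposite respiration genes, YOR135C, opposite IDH2 (a subunit of isocitrate dehydrogenase), was lower under all 3 scalings, with 3148, 2956, 3032 and 3213 scaled CPM in NIP1_depl, against 9035, 9423, 11442 and 10219 in hrc1D. YBL100C, opposite ATP1 of the ATP synthase, changed sign with scaling (log2 -0.24 with TMM and 0.83 with library totals). Of the 3 respiration genes tested under their own names, 1 was called higher with TMM and 3 with library totals. So were 55.8% of the 360 tested RefSeq genes with no RefSeq gene opposite with TMM, and 325 of them with library totals. FBP1, a gluconeogenic enzyme, was not called with TMM (log2 0.29, adjusted p = 0.48 in edgeR's quasi-likelihood test). FBP1 was called higher with library totals (log2 1.35), but with 17, 5, 7 and 7 counts in hrc1D it passed the filter through NIP1_depl alone. Opposite mitochondrial ribosomal protein genes, 3 of 3 features were lower with TMM. So were 32.6% of all tested features and 55.7% of the tested features not in RefSeq, and 3 members are too few to describe the class. YGR219W, opposite MRPL9, was lower under all 3 scalings (log2 -1.56), YKL169C, opposite MRPL38, was not called with library totals (log2 -1.20 with TMM and -0.14 with library totals), and YPR099C, opposite MRPL51, changed sign (log2 -0.56 with TMM and 0.51 with library totals). YGL069C, opposite MNP1, a further protein of the mitochondrial ribosome outside the list and picked after its values were seen, fell by 1.64 on the log2 scale.

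Ribosome biogenesis genes had 10 tested opposite features. With TMM 1 was higher, 5 were lower and 4 were not called, and with library totals 7 were higher and none lower, so the median turned (log2 -0.22 with TMM and 0.85 with library totals). Of the 386 tested features not in RefSeq, 215 (55.7%) were lower with TMM and 215 were higher with library totals. The counts of this list lie near those shares, and no trait of the list is drawn from them. YDL152W, opposite SAS10 (processing of small-subunit rRNA), was higher under all 3 scalings, with 652 ± 80.2 scaled CPM in NIP1_depl and 533 ± 57.9 in hrc1D (SD, n = 4 each, adjusted p = 0.048 in edgeR's quasi-likelihood test), and its libraries overlapped. That call was lost without any 1 of 6 libraries (adjusted p = 0.0544 to 0.366), and held only without hrc1D R42L replicate 1 or NIP1_depl EcFMT replicate 2. YNL114C, opposite RPC19, a subunit shared by RNA polymerases I and III, had 1563 ± 145 scaled CPM in NIP1_depl and 1505 ± 196 in hrc1D and was not called with TMM (log2 0.05), but was called higher with library totals (log2 1.12), with features not in RefSeq alone (log2 0.53) and at a mean of at least 50 counts (log2 0.60). YLR198C, opposite NOP56 (a core box C/D snoRNP protein), and YMR290W-A, opposite HAS1 (an RNA helicase), had log2 changes of -0.95 and -0.25 with TMM and 0.12 and 0.82 with library totals. The call of YMR290W-A was lost with RLE factors (adjusted p = 0.329) and without hrc1D EcFMT replicate 2, hrc1D R42L replicate 1 or either NIP1_depl library with R42L (adjusted p = 0.0556 to 0.136).

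Among the features that rose most under all 3 scalings were those opposite ARO9 and CAR2 and beside TPO2. YHR137C-A, opposite ARO9, the aminotransferase that starts breakdown of aromatic amino acids, had 4547, 4100, 4361 and 4427 scaled CPM in NIP1_depl, against 524, 437, 270 and 314 in hrc1D. YLR437C-A, opposite CAR2, ornithine aminotransferase of arginine breakdown, had 1424, 1603, 1641 and 1659 scaled CPM in NIP1_depl, against 262, 421, 253 and 258 in hrc1D. YGR139W, beside TPO2, a polyamine transporter gene, had 3435, 3081, 3246 and 3575 scaled CPM in NIP1_depl, against 294, 361, 244 and 341 in hrc1D. All NIP1_depl libraries were above all hrc1D libraries for these 3, and the log2 changes were 3.45 ± 0.12, 2.36 ± 0.14 and 3.41 ± 0.12 (SE). The largest rise among features averaging at least 50 counts was that of YPL185W, which lies between MRN1 and UIP4, a log2 change of 4.32 ± 0.23 (SE). It had 1629, 1498, 1372 and 1291 scaled CPM in NIP1_depl, against 21.4, 104, 131 and 46.1 in hrc1D. ARO10, the decarboxylase of the same aromatic pathway, was lower under its own name, with 24.6, 19.97, 18.4 and 16.5 scaled CPM in NIP1_depl, against 294, 235, 218 and 277 in hrc1D. ARO10 held 6, 4, 3 and 3 counts in NIP1_depl and passed the filter on low counts through hrc1D alone. Its direction is therefore given as a description. Counts under its own name and counts opposite ARO9 may not be the same kind of reads.

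ARO9 was the 1 member of the amino acid list whose opposite feature rose. YER090C-A, opposite TRP2 (tryptophan synthesis), was lower under all 3 scalings, with 62.2 ± 21.0 scaled CPM in NIP1_depl and 219 ± 25.03 in hrc1D (SD, n = 4 each). YNL103W-A, opposite LEU4 (leucine synthesis), was lower with TMM (log2 -0.75) and higher with library totals (log2 0.32), and its libraries overlapped. Of 2 members tested under their own names, 1 was higher and 1 was not called with TMM, and 2 were called higher with library totals. Of the 360 tested RefSeq genes with no RefSeq gene opposite, 55.8% were higher with TMM and 325 were higher with library totals.

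Both tested features opposite glycerol and storage-carbohydrate genes were higher in NIP1_depl under all 3 scalings, as were 36% of all tested features. YDL023C, opposite GPD1, the enzyme that commits glycolytic intermediate to glycerol, had 10773, 11545, 11067 and 10968 scaled CPM in NIP1_depl, against 5167, 5474, 8130 and 5515 in hrc1D. The groups did not overlap, although R42L replicate 1 of hrc1D stood above the other 3 hrc1D libraries, and the log2 change was 0.88 ± 0.11 (SE, adjusted p = 3.9e-05 in edgeR's quasi-likelihood test). Set against the ribosomal protein features of the same library, its ratio was 0.0378 ± 0.00115 in NIP1_depl and 0.0124 ± 0.00270 in hrc1D (SD, n = 4 each, exact permutation p = 0.0286). YKL036C, opposite UGP1, which makes UDP-glucose for glycogen, trehalose and the cell wall, had 1795 ± 45.4 scaled CPM in NIP1_depl and 1346 ± 169 in hrc1D. PGM1 (phosphoglucomutase), tested under its own name, had 84.9 ± 12.0 scaled CPM in NIP1_depl and 34.5 ± 17.5 in hrc1D. With 4, 10, 5 and 2 counts in hrc1D, PGM1 passed the filter on low counts through NIP1_depl alone. Its direction is therefore given as a description.

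GID8 encodes a subunit of the GID ubiquitin ligase, which degrades gluconeogenic enzymes. YMR135W-A, opposite GID8, had 1104, 1273, 1170 and 1379 scaled CPM in NIP1_depl, against 427, 442, 488 and 452 in hrc1D, with no overlap and a log2 change of 1.44 ± 0.12 (SE). YPR050C, opposite MAK3, the catalytic subunit of an N-terminal acetyltransferase, changed sign with scaling (log2 -0.54 with TMM and 0.53 with library totals). YGL214W, opposite SKI8, a subunit of the complex that feeds mRNA to the exosome, was lower under all 3 scalings, with 176 ± 16.0 scaled CPM in NIP1_depl and 492 ± 51.8 in hrc1D (SD, n = 4 each). RKR1, the ubiquitin ligase of ribosome quality control, had 93.8 ± 16.4 scaled CPM in NIP1_depl and 160 ± 14.2 in hrc1D under its own name, with a log2 change of -0.76 with TMM and 0.30 with library totals.

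Features picked after their values were seen that rose under all 3 scalings included YMR031W-A, opposite EIS1 (a component of eisosomes, which organise the plasma membrane), with 701 ± 70.4 scaled CPM in NIP1_depl and 241 ± 20.4 in hrc1D (SD, n = 4 each). YLR374C, opposite STP3, a zinc finger protein gene, had 1085 ± 117 scaled CPM in NIP1_depl and 521 ± 77.4 in hrc1D. YFL021C-A, opposite GAT1, an activator of nitrogen-regulated genes, had 1904 ± 83.5 scaled CPM in NIP1_depl and 1289 ± 117 in hrc1D. EMI1, opposite the glutaredoxin gene GRX2, had 1771 ± 78.0 scaled CPM in NIP1_depl and 1088 ± 271 in hrc1D. YDL185C-A, opposite the vacuolar ATPase gene VMA1, was higher under all 3 scalings (log2 0.39), with overlapping libraries. YOR331C, opposite VMA4 of the same enzyme, was lower with TMM (log2 -0.81) and higher with library totals (log2 0.26). The rule for named features added YML090W beside RPM2 (log2 2.56), YPL205C beside HRR25 (log2 2.11) and YOL118C under its own name (log2 2.41).

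**Figure D4:**
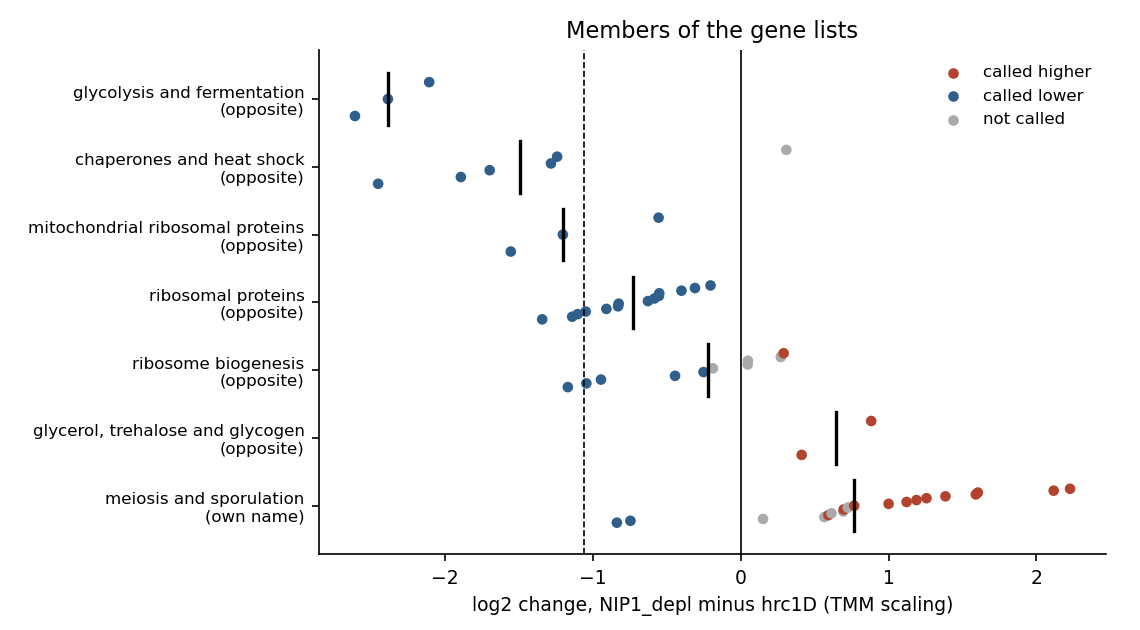
Log2 change (NIP1_depl minus hrc1D, TMM) of each tested member of 7 gene lists, with a bar at the list median. The solid line is 0 with TMM and the dashed line, at 1.06 below it, is where 0 falls with library totals. Glycolytic members lie left of both lines, ribosomal protein members lie left of the solid line on both sides of the dashed one, and meiosis genes lie on both sides of the solid line.

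RefSeq genes with no RefSeq gene on the other strand held a larger part of the footprints in NIP1_depl. Their share was 8.37% and 8.25% with EcFMT and 8.07% and 7.99% with R42L in NIP1_depl, against 2.60% and 2.56% with EcFMT and 2.15% and 2.45% with R42L in hrc1D. The groups did not overlap, the share was 3.35 times as large in NIP1_depl, and the exact permutation test gave p = 0.0286, or 0.0556 within enzyme form, again the smallest values possible. Although the NIP1_depl libraries were shallower, 925 of these 5930 genes had at least 10 counts over the 4 NIP1_depl libraries and 493 over the 4 hrc1D libraries. Of the 360 that passed the filter on low counts, 201 (55.8%) were higher under all 3 scalings (36% of all tested features were), 19 were lower with TMM, 6 of them under all 3, and the median log2 change was 1.18 with TMM. A gene of this class could pass the filter through NIP1_depl alone, where its share is higher, so these counts and this median describe the genes that passed and do not bear on the class as a whole. The share above and the density below take in all 5930 genes. The counts were spread over many genes, the top 10 holding 8.22% of them in NIP1_depl and 9.30% in hrc1D. The density was higher in NIP1_depl in all 4 bins of gene length. In the bin of shortest genes (51 to 693 nt) it was 32.6 ± 0.486 counts per kb per 1e+06 library counts in NIP1_depl and 10.5 ± 0.697 in hrc1D. In the bin of longest genes (1878 to 14733 nt) it was 4.66 ± 0.238 in NIP1_depl and 1.33 ± 0.120 in hrc1D (SD, n = 4 each).

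Named members of this class had few counts each. SAS3 (a histone acetyltransferase), DIN7 (a mitochondrial nuclease) and AIM45 (a mitochondrial electron-transfer protein) were at 0 in both hrc1D libraries with R42L, and had 105 ± 28.1, 143 ± 37.2 and 143 ± 19.0 scaled CPM in NIP1_depl and 2.701 ± 3.12, 4.04 ± 5.13 and 4.07 ± 5.22 in hrc1D (SD, n = 4 each). All 3 were called higher under all 3 scalings and did not overlap between strains. With at most 2 counts in any hrc1D library, they passed the filter on low counts through NIP1_depl alone. Their calls and lack of overlap followed from that and are given as a description. ASE1, which encodes a protein that bundles spindle microtubules, had 534, 394, 478 and 362 scaled CPM in NIP1_depl, against 80.1, 126, 52.3 and 55.3 in hrc1D. With 15, 23, 6 and 6 counts in hrc1D, ASE1 also passed the filter through NIP1_depl alone. Its difference is given as a description. Of the 774 tested features, 6 had 0 counts in all hrc1D libraries. These 6 passed the filter through NIP1_depl alone and so had to differ, and their values are given as a description. HSL1, a kinase that regulates mitotic entry, held 70 counts in NIP1_depl and 0 in hrc1D, which with a floor of 3 counts over the 4 hrc1D libraries is at least 36.1-fold higher as a share of library totals. MCD4 (GPI anchor synthesis) held 64 counts, RAX2 (bud site choice) 63, TOS1 (a cell wall protein) 63, TFC1 (a subunit of TFIIIC) 51 and SRS2 (a DNA helicase) 36 in NIP1_depl, against 0 each in hrc1D. No tested feature had 0 counts in all NIP1_depl libraries.

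Lower members of the same class were fewer. YDR524W-C, an uncharacterised ORF, had 0, 30.0, 49.0 and 10.98 scaled CPM in NIP1_depl, against 449, 497, 383 and 397 in hrc1D. It passed the filter on low counts through hrc1D alone, so its direction is given as a description. EPL1, a subunit of the NuA4 histone acetyltransferase, had 27.9 ± 14.1 scaled CPM in NIP1_depl and 100.01 ± 27.5 in hrc1D (SD, n = 4 each) and was not called with library totals. With 11, 5, 5 and 2 counts in NIP1_depl, EPL1 too passed the filter through hrc1D alone, and its direction is a description. FAR1, which arrests the cell cycle in response to pheromone and was picked after its values were seen, had 46.4 ± 9.72 scaled CPM in NIP1_depl and 158 ± 43.0 in hrc1D.

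Of 65 meiosis and sporulation genes, 19 were tested under their own names. Of these, 12 were higher under all 3 scalings, 2 were lower with TMM and 5 were not called with TMM. Higher under all 3 scalings were also 55.8% of all tested RefSeq genes with no RefSeq gene opposite and 36% of all tested features. The median log2 change of the 19 was 0.77 with TMM, against 1.18 for those RefSeq genes, and the same limit of the filter applies to both. NDT80, the transcription factor that commits cells to meiotic division, had 254, 350, 288 and 286 scaled CPM in NIP1_depl, against 155, 115, 105 and 166 in hrc1D, a log2 change of 1.12 ± 0.22 (SE, adjusted p = 3.8e-05 in edgeR's quasi-likelihood test). SPO13, which keeps sister chromatids together in the first meiotic division, had 220 ± 45.6 scaled CPM in NIP1_depl and 132 ± 40.7 in hrc1D (SD, n = 4 each), and LOH1 had 216 ± 48.5 in NIP1_depl and 139 ± 36.8 in hrc1D. The libraries of NDT80 did not overlap, while those of SPO13 and LOH1 did. The call of SPO13 was lost without hrc1D R42L replicate 2 (adjusted p = 0.0705) or NIP1_depl R42L replicate 1 (adjusted p = 0.0618). That of LOH1 was lost without either hrc1D library with R42L, NIP1_depl EcFMT replicate 1 or either NIP1_depl library with R42L (adjusted p = 0.0538 to 0.168). DMC1, the meiotic recombinase, and SPO77 were lower with TMM (log2 -0.84 and -0.75) and not called with library totals (log2 0.22 and 0.32). With library totals 17 of the 19 were called higher, all but DMC1 and SPO77, as were 325 of the 360 tested RefSeq genes with no RefSeq gene opposite. SPS19, opposite which YNL203C lies, was not called on either strand with TMM. With library totals it was called higher on both strands (log2 1.21 for YNL203C).

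The strain difference was next taken within each form of the enzyme. The 2 contrasts compare different libraries but come from the same fit over the 8 libraries. They share its filter, scaling and estimate of spread, so they are not separate tests. With EcFMT 459 features (59.3%) were called, 224 higher (28.9%) and 235 lower (30.4%) in NIP1_depl, and with R42L 418 (54.0%) were called, 214 higher (27.6%) and 204 lower (26.4%). Of these, 354 were called with both forms in the same direction and 0 in opposite directions. Over the 241 features that averaged at least 50 counts, the 2 sets of log2 changes had a Pearson r of 0.968, as a description across features that share library scaling, and 220 had the same sign. The feature opposite CDC19 had a log2 change of -2.11 with EcFMT and -2.10 with R42L, that opposite SSA1 -2.53 and -2.38, that opposite CTS1 -4.36 and -4.42, and that opposite ARO9 3.17 and 3.91.

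No feature of the 774 was called for a strain difference that differed between the forms (EcFMT minus R42L) in edgeR's quasi-likelihood test, while 34 had an unadjusted p under 0.05, and DESeq2 also called 0. Without hrc1D R42L replicate 2, 12 of 955 tested features were called, and without replicate 1 of that group 3 of 880. In those fits the lone library left is assumed to vary like the other groups. With all libraries kept, RLE factors and the mean of at least 50 counts each called 1. The 2 hrc1D libraries with R42L differed more from each other than the other replicate pairs did. Their chi-square divided by its degrees of freedom was 2.94, against 1.601 and 1.74 in NIP1_depl and 1.63 in hrc1D with EcFMT. The 3 smallest p-values, none of which passed, belonged to YJL188C opposite RPL39 (difference of log2 changes -0.36 ± 0.09, SE), YPR016W-A between YPR015C, TIF6 and DSS4 (-1.04 ± 0.29) and IRC8 under its own name (-2.42 ± 0.69), each with an adjusted p of 0.38. YPR016W-A had 644 and 604 scaled CPM with EcFMT and 796 and 703 with R42L in NIP1_depl, against 369 and 371 with EcFMT and 209 and 221 with R42L in hrc1D. The lack of calls does not show that the forms act alike. The 95% interval of the difference lay within 1.5-fold either way for 78 of the 241 better-covered features, and the median absolute difference over the 241 was 0.20 on the log2 scale. For comparison, the enzyme form itself, EcFMT minus R42L over both strains in the same model, was called for 0 features, with 45 at an unadjusted p under 0.05.

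**Figure D5:**
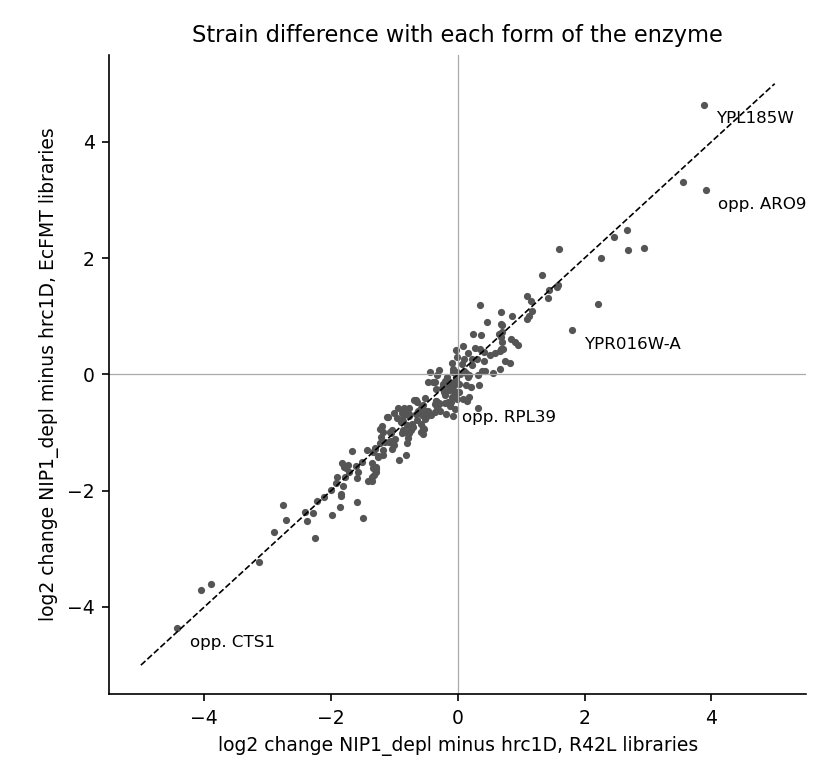
Log2 change NIP1_depl minus hrc1D in the EcFMT libraries (vertical) against the R42L libraries (horizontal) for the 241 features that averaged at least 50 counts. The dashed line marks equal changes, and the points lie along it (r = 0.968), from YLR286W-A opposite CTS1 (-4.36 and -4.42) to YPL185W (4.64 and 3.88).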

How the data were processed

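Ribosome footprints were measured in 20 libraries, of which the 4 NIP1_depl and 4 hrc1D libraries are used. Per the submitters' processing notes, STAR 2.7.2b, RSEM 1.2.31 and the R64 genome were used. The authors deposited expected counts for 7127 features per library, not scaled for depth. RNA sequencing, which the series also names, is not analysed here.

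Of these, 6703 ORF features were kept. Tests ran on the expected counts after rounding to integers. RefSeq genes were matched by locus tag. For 674 ORFs not in RefSeq the opposite gene was known in 62 cases and inferred in 111 from order and strand in systematic names, after the counts were seen. The rest are given by neighbouring genes. RefSeq genes count as having a gene opposite at an overlap of at least 30 nt.

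Tests used edgeR 4.0.16 in R 4.3.3 (quasi-likelihood, robust, TMM, filterByExpr at a minimum count of 10) with enzyme form as a covariate. That left 5 residual degrees of freedom, with a common biological coefficient of variation of 0.0973. Benjamini-Hochberg adjustment ran over all 774 tested features, called under 0.05. Forms were compared with 1 mean per group. SE was taken as absolute log2 change over the square root of F. Exact permutation tests were two-sided. The fit was tested on simulated data. Floors and counts cover counting error only.

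Named features were the 12 with the largest share of counts, up to 8 per direction with the largest called, non-overlapping log2 change at a mean of at least 50 counts, up to 3 per list by mean count, the eIF3 genes with FMT1, the 3 smallest p-values between forms, and up to 4 per direction of RefSeq genes with no gene opposite at a mean of at least 10 counts. Members and the 15 lists were chosen with earlier results of these data known. Others are named as picked after their values were seen. A gene that the rule for named features selects is not reported here.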

Additional observations from a re-analysis of the deposited data

How the results depend on the processing

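With RLE factors 551 features were called, with DESeq2 485, with no filter on low counts 614, with all deposited features 531, with all 20 libraries 638, without the covariate 536 and without the 3 most abundant features, an alternative chosen after seeing the data, 513. Counts moved by over 1.5 times where fewer features were tested. With features not in RefSeq alone (387 tested), 279 were called over both forms, 251 with EcFMT and 233 with R42L. At a mean of at least 50 counts (241 tested), 191, 170 and 172 were called. With R42L, DESeq2 called 271, against 418 in edgeR, and the cause was not tested. Leaving out each library in turn gave 524 to 589 calls over both forms, 371 to 535 with EcFMT, 329 to 451 with R42L and 0 to 12 between forms, where RLE factors and the mean of at least 50 counts each called 1. The share of higher calls was 52.5% with TMM, 58.4% with RLE factors and 86.1% with library totals. A replicate block called 526 features over both forms, 452 with EcFMT, 404 with R42L and 0 between forms. Same-numbered replicates did not deviate together (correlation -0.0595 to 0.0397 over 241 features), so the numbers were not taken as pairs. The glycolytic ratio differed by -0.675 (-0.688 to -0.660 without each library, -0.675 when permuted within form) and the RefSeq share by 5.73 percentage points (5.64 to 5.79 without each library, 5.73 within form, 6.15 with opposite-strand genes included). Leaving out the 3 most abundant features of each class from that ratio was not possible, since the glycolytic class holds 3.

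Of 90 named features, 19 turned from lower to a positive log2 change with library totals. These were 0.0384 opposite HYP2 (YEL034C-A), 0.52 RPL43A (YPR044C), 0.48 RPL10 (YLR076C), 0.24 RPP0 (YLR339C), 0.24 RPL28 (YGL102C), 0.67 RPL8B (YLL044W), 0.51 RPL12B (YDR417C), 0.0202 RPL36B (YPL250W-A), 0.44 RPL12A (YEL053W-A), 0.76 RPL39 (YJL188C), 0.12 NOP56 (YLR198C), 0.82 HAS1 (YMR290W-A), 0.51 SUI3 (YPL238C), 0.32 LEU4 (YNL103W-A), 0.83 ATP1 (YBL100C), 0.51 MRPL51 (YPR099C), 0.53 MAK3 (YPR050C), 0.26 VMA4 (YOR331C) and 0.30 for RKR1 (YMR247C). List medians turned to 0.44 for the stalk, 0.34 for ribosomal proteins, 0.85 for ribosome biogenesis, 0.32 for the amino acid list and 0.10 for respiration. With features not in RefSeq alone, YLL044W turned to 0.0796, YMR290W-A to 0.24, YBL100C to 0.25 and YJL188C to 0.17. At a mean of at least 50 counts, YPR044C was at 0.0047, YLL044W 0.15, YDR417C 0.0011, YMR290W-A 0.31, YBL100C 0.32, YPR099C 0.0038, YPR050C 0.0203 and YJL188C 0.24.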
